A study of Drosophila melanogaster with 2 samples.

Results

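The genes at the strongest binding sites of ATbp in fly embryos were lncRNA:CR31840, Ugalt, px, CG11050, CG13323, CG14100, sbb, CG32772, CG18549 and PNPase. They are 10 of 18277 annotated genes and were selected on the signal value of summits that they hold or flank, among the highest in the peak list that the authors kept after an irreproducible discovery rate (IDR) analysis. Their signals and ranks in that list are therefore a description and carry no test. The chromatin came from whole embryos of both sexes aged 0 to 14 h, from a Drosophila melanogaster line that carries a transgene for ATbp fused to GFP at its C-terminal end, and it was precipitated with an antibody to GFP. Both replicates came from this line. There were 2 biological replicates, which form 1 group, so no condition was compared. Binding in whole embryos cannot be assigned to a cell type, and no source used here gives the promoter that drives the transgene.

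The name of ATbp, a zinc finger protein, refers to its binding of DNA rich in A and T. ChIP-seq recovers the DNA fragments bound to such a protein, and a peak's summit is the base where the fragments pile up highest. The 10 genes form no pathway. Ugalt carries UDP-galactose into the Golgi for the building of sugar chains, px encodes the nuclear protein Plexus, which limits wing vein formation, and sbb encodes Scribbler, also known as Brakeless, a nuclear corepressor of transcription that photoreceptor axons need for correct targeting. PNPase is polynucleotide phosphorylase, an exoribonuclease that acts on RNA in mitochondria. RefSeq lists CG18549 under the synonym MFSD11, a name of the major facilitator family of transporters, and gives CG11050, CG13323, CG14100 and CG32772 no described product. The first gene of the list, lncRNA:CR31840, encodes a noncoding RNA.

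The DNA at the summits is shown first, since it is what the protein was precipitated with. For each gene its leading summit, the strongest summit of the IDR list in the gene body or within 15 kb of it, was taken with 50 bp on either side. Sequences are on the plus strand of dm6, 5′ to 3′, from the RefSeq assembly of that build, and capitals mark runs of at least 8 A or T bases. Bases annotated as untranslated regions (UTRs) were left out, which shortens the Ugalt and PNPase entries. Sequences at 7 of the 10 leading summits are printed.
lncRNA:CR31840, chr2L:14024024-14024124: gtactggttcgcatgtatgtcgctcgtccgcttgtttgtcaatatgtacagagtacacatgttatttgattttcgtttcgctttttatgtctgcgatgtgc
Ugalt, chrX:2703853-2703929: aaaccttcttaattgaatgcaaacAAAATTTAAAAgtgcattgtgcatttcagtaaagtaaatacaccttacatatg
CG11050, chr2L:6612654-6612754: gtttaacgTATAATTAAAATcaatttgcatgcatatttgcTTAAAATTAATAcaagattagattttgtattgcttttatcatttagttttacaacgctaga
CG14100, chr3L:19590564-19590664: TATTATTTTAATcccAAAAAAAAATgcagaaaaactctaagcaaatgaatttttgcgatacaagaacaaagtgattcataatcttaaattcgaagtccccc
CG32772, chrX:4910327-4910427: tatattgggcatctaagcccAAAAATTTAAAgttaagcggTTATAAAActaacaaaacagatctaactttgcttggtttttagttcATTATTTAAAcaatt
CG18549, chr3R:12449112-12449212: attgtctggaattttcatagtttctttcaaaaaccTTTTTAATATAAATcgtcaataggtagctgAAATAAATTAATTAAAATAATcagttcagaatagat
PNPase, chr3R:31404605-31404652: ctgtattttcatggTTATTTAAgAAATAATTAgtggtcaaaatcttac

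These stretches differ in how their A and T bases are arranged. The CG18549 window held the longest unbroken run, 21 bases, and the CG11050 and CG14100 windows held runs of 12. The stretch at lncRNA:CR31840, where the signal was highest of all, had no run of 8, and its longest was 7 bases.

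Read counts are not part of the peak lists, and library depth is unknown. Each replicate's relaxed list, made as input to the IDR step, held 30000 peaks, as did the list from the pooled replicates, and the IDR list held 5921. All 5921 IDR peaks were the strongest 5921 of the pooled list. A signal is the authors' own value for a peak. Signals of the replicates are given side by side, and ranks are within each list. The 10 leading summits ranked 1, 2, 4, 5, 7, 8, 9, 10, 11 and 12 by signal, from 4854.3 at lncRNA:CR31840 to 2370.0 at PNPase. The median signal was 3097.1 over the leading summits and 220.5 over all IDR summits, a gap that the choice of genes fixes. Ranks 3 and 6, with signals of 3576.1 and 3217.2, were intronic, in the cell junction gene cno and in ush, which encodes a partner of GATA factors, and lay in no window of the 10 genes. The ush summit was nearest to the transcription start site (TSS) of cbt, 1377 bp away. Directly below PNPase came summits of signal 2318.7 at CG1888, 243 bp from its TSS, and 2310.3 at Tina-1, 160 bp from its TSS, so the weakest of the 10 was close to the next peaks.

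Leading summits lay close to TSSs at 6 of the 10 genes, counting a distance of up to 500 bp, where 34.6% of all IDR summits did. A further 3 were in introns (46.6% of all) and 1 was intergenic (15.6%). None was in coding sequence or in an annotated UTR. Their median distance to the nearest TSS was 166.5 bp, against 1216 bp for all IDR summits and 468 bp for the 500 strongest. The median of the 500 strongest was thus also within the promoter distance. The distance was not used in choosing the genes, and no test was made of it. Of the 6 at promoters, 5 lay upstream of the nearest start, where 73.6% of all promoter summits did. None of the 6 lay between a divergent pair of starts within 500 bp, where 20.9% of all promoter summits and 7.23% of all IDR summits did.

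Ugalt, the Golgi transporter gene, had its summit at X:2703879, 27 bp upstream of the TSS at 2703852. The summit had a signal of 1705.2 and rank 4 in replicate 1, and a signal of 2064.3 and rank 1 in replicate 2. It was the top peak of replicate 2. The next start to the right belonged to eIF2Bbeta, a subunit gene of a translation initiation factor, at 692 bp. No other IDR summit lay within 15 kb of Ugalt, and the closest one was 39431 bp away, so the gene stood alone where the other 9 windows held 2 to 18.

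At px the leading summit was at 2R:22514298 in the wing vein gene itself. The gene has 3 annotated TSSs, and the summit was 199 bp upstream of the innermost, at 22514099, and inside an intron of 20745 bp of the longer transcripts. Replicate 1 gave a signal of 1623.2 and rank 6, and replicate 2 a signal of 1659.1 and rank 4. A second px start, at 22546558, had a weaker summit 205 bp upstream of it, with signal 501.2 and rank 848. The outermost start, at 22562065, had its nearest IDR summit 776 bp inside the gene, with signal 477.4 and rank 913, and the pooled relaxed list had a weaker summit at 22562066, with signal 74.9 and rank 11421. The strongest IDR signal was thus at an internal start of px.

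At CG14100 and CG18549 the leading summit lay upstream of a single start. The CG14100 summit lay at 3L:19590614, 90 bp upstream of its only TSS, with signal 1341.1 and rank 9 in replicate 1, and signal 1717.4 and rank 3 in replicate 2. On its other side the nearest start was that of ash1, a trithorax group gene for a histone methyltransferase, 8141 bp away. The CG18549 summit lay at 3R:12449162, 134 bp upstream of its only TSS, with signal 1151.7 and rank 15 in replicate 1, and signal 1270.1 and rank 11 in replicate 2. The start of vrs, the nearest on the other side, was 1509 bp away.

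PNPase had its leading summit inside the gene, at 3R:31404649. The site was 81 bp upstream of an annotated internal TSS at 31404568 and 91 bp downstream of another at 31404740, and it fell in an intron of only 48 bp, from 31404605 to 31404652. That intron is the sequence printed for PNPase, and 75% of it was A or T, against 67.3% within 50 bp of the summit. The summit of replicate 1 was at 31404652, the last base of the intron, and that of replicate 2 at 31404659, outside it. Replicate 1 gave signal 1078.1 and rank 21, and replicate 2 signal 1300.9 and rank 10. The outermost start, at 31405452, had a weak summit 90 bp away, with signal 140.5 and rank 5326, which also lay in Gprk2, a kinase gene for G protein-coupled receptors, 117 bp from its start. That weak peak had a relaxed summit within 100 bp in replicate 1, at rank 3804, and none in replicate 2.

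The noncoding gene lncRNA:CR31840 is 378 bp long and had the strongest summit of the list, at 2L:14024074. It lay 25 bp downstream of the TSS, in the gene's exon, and was the one promoter summit of the 6 downstream of its nearest start. Replicate 1 gave signal 2958.2 and rank 1, and replicate 2 signal 1930.6 and rank 2, with the summits of both replicates at the same base, 14024080. A second noncoding gene, lncRNA:CR45352, had its start 2041 bp to the left and carried 2 further IDR summits, 215 and 428 bp upstream of its start, with signals of 727.5 and 203.6 and ranks of 399 and 3320. The weaker of these ranked 14168 in replicate 1 and 1996 in replicate 2, the widest difference of rank among the 53 summits of the windows that were matched in both replicates. Both were summits of a single IDR peak, 14022125 to 14022480. In replicate 2 the weaker one also shared a peak with the stronger, but in replicate 1 it matched a separate peak, with its summit at 14022518. The 2 ranks thus compare unlike peak calls.

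Another 3 leading summits were in introns over 500 bp from any start. In CG11050 the summit at 2L:6612704 was in an intron of 140 bp, 1017 bp downstream of the nearest of the gene's 3 starts, and 77.2% of the DNA within 50 bp of it was A or T. Its signal was 1644.9 in replicate 1 and 1628.8 in replicate 2, with rank 5 in both. The gene's first start, at 6611011, had a weaker summit 175 bp upstream, with signal 266.4 and rank 2322. In CG32772 the summit at X:4910377 was in an intron of 1054 bp, 1275 bp downstream of the first TSS, with signal 1172.9 and rank 14 in replicate 1, and signal 1301.4 and rank 9 in replicate 2.

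The corepressor gene sbb spans 79099 bp and had its leading summit at 2R:18337177, deep in an intron of 49364 bp and 20119 bp from the nearest start. Of the 10 leading summits it had the replicate ranks farthest apart, with signal 1721.4 and rank 3 in replicate 1, and signal 1042 and rank 25 in replicate 2. Its A+T content, 63.4%, was below the median of 65.3% over all IDR summits, as was that of lncRNA:CR31840 at 58.4%. The other 8 were above it.

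The remaining leading summit, at 2R:13035334, was intergenic and was assigned to CG13323, whose TSS was the nearest. CG13323 is on the minus strand, from 13044695 to 13047256, so the summit lay beyond the gene's 3′ end. The gene's TSS was 11922 bp to the right, and the nearest start on the left, that of the Polycomb group gene Su(z)2, was 38211 bp away. Signals were 1518.0 at rank 8 in replicate 1, and 1627.1 at rank 6 in replicate 2. With a flank of 5 kb in place of 15 kb, CG13323 had no IDR summit. Its link to the summit rests on distance alone.

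Both replicates placed the leading summits at nearly the same base. All 10 had a relaxed summit within 100 bp in each replicate, as did 92.6% of all IDR summits, and all 10 ranked within 100 in both lists, as did 1.13% of all. Both counts follow in large part from how the IDR list was made and the genes chosen, and nothing is read from them. Replicate ranks ran from 1 to 21, with a median of 7, in replicate 1 and from 1 to 25, with a median of 5.5, in replicate 2. The position of the summit was not part of the choice. Summits of the replicates were 0 to 28 bp apart, with a median of 7 bp, against 20 bp over the 5481 IDR summits matched in both and 11 bp over the 497 of the 500 strongest that were. No test was made of the 10 against these.

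**Figure D1:**
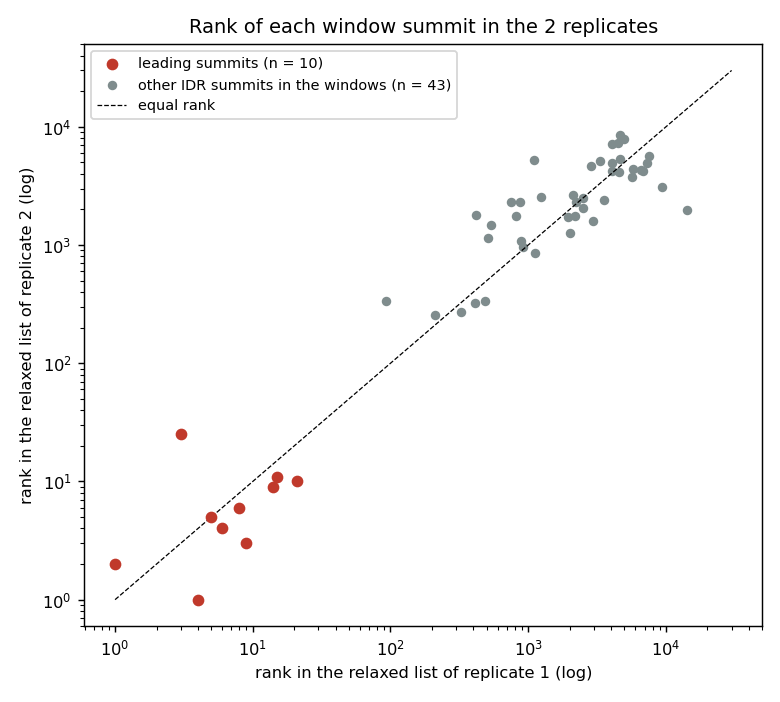
Rank of each IDR summit of the 10 windows in the relaxed list of replicate 1 (horizontal, log scale) and of replicate 2 (vertical, log scale). Red points are the 10 leading summits, between ranks 1 and 25 in both lists, and grey points the 43 other summits matched in both, with the sbb leading summit (3 and 25) farthest from the line of equal rank among the red points.

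Peak widths of the leading summits ran from 349 bp at PNPase to 565 bp at lncRNA:CR31840, with a median of 405.5 bp. The most frequent width over the whole list was 404 bp, which 62.8% of IDR peaks had, and 1.27% were wider. Among the leading peaks 5 were wider, those at lncRNA:CR31840 (565 bp), sbb (562 bp), CG32772 (546 bp), CG11050 (435 bp) and CG13323 (407 bp), and 4 were narrower, as were 35.9% of all. Ugalt had the modal width. Width comes from the same peaks as the signal, so nothing is read from this count. In the relaxed lists the median width in the windows was 404 bp for the pooled replicates, 400 bp for replicate 1 and 384 bp for replicate 2. The sources used here do not say whether these common widths are measured extents or settings of peak calling.

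DNA at the leading summits was rich in A and T over a short distance. Within 50 bp on either side the A+T content ran from 58.4% at lncRNA:CR31840 to 77.2% at CG11050 and CG18549, with a median of 69.8%, against 65.3% over all IDR summits and 68.3% over the 500 strongest. Within 25 bp the median was 71.6%, against 66.7% over all. In wider windows the order turned round, with 61.9% against 63.7% within 100 bp and 58.5% against 61.8% within 150 bp. The SD within 50 bp was 6.03 percentage points among the 10 and 9.26 among all 5921, so the values overlap broadly. At least 1 run of 8 A or T bases was within 50 bp at 9 of the 10, where 70.9% of all IDR windows had one. Among the 500 strongest the lower quartile of the longest run was itself 8 bases.

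Mean A+T content in steps of 20 bp was highest near the leading summits but uneven there. It was 75.5% ± 6.43 (SD, n = 10) in the 20 bp left of the leading summits and 77.0% ± 8.56 in the step from 20 to 40 bp to the right, against 65.5% and 64.1% around all IDR summits. In the step from 0 to 20 bp to the right it was 69.0% ± 9.94 against 65.4%, and from 20 to 40 bp to the left 66.5% ± 15.6 against 64.4%, so these steps were closer to all IDR summits. Farther out, from 60 to 80 bp to the left, it was 48.0% ± 15.7 against 62.1%, and from 80 to 100 bp to the right 48.0% ± 18.6 against 59.7%. Farther right it was above that of all IDR summits in each step from 160 to 260 bp. It was highest there from 220 to 240 bp, at 71.0% ± 9.66 against 56.6%. Each such step holds 20 bases of 10 summits, and no test was made of any step.

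**Figure D2:**
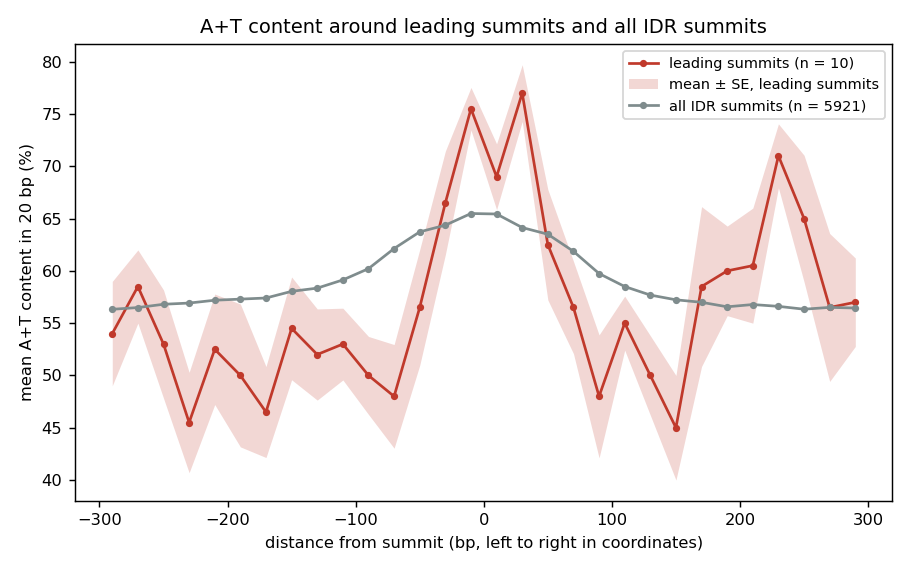
Mean A+T content (percent, vertical) in steps of 20 bp from 300 bp left to 300 bp right of the summit (horizontal), for the 10 leading summits (red, band of ± 1 SE) and all 5921 IDR summits (grey). The red line is above the grey within about 40 bp of the summit, reaching 75.5% and 77.0%. Beside that it is below the grey, at 48.0% from 60 to 80 bp to the left and from 80 to 100 bp to the right. From 160 to 260 bp to the right it is above the grey again, reaching 71.0%.

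The contrast between the centre and the DNA beside it was uneven among the genes. In the central 41 bp the A+T content was 70.7% in the median leading summit and 65.9% in the median IDR summit. The median of the 500 strongest was 69.5%, close to that of the leading summits. Of the 10, 9 were above 65.9%, with sbb, at 63.4%, below it. Over 100 to 300 bp on both sides the A+T content was 56.3% in the median leading summit and 57.0% in the median IDR summit, with 5 of the 10 below 57.0%. In the 500 strongest this median was 55.5%. The median difference between centre and sides was 15.6 percentage points at leading summits, 13.6 in the 500 strongest IDR summits and 9.54 in all. It was widest at CG11050 (80.5% in the centre and 48.5% beside it) and px (75.6% and 44.5%), and smallest at sbb (63.4% and 60.0%) and CG14100 (70.7% and 64.2%). These 2 distance ranges were set after the profile had been seen.

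**Figure D3:**
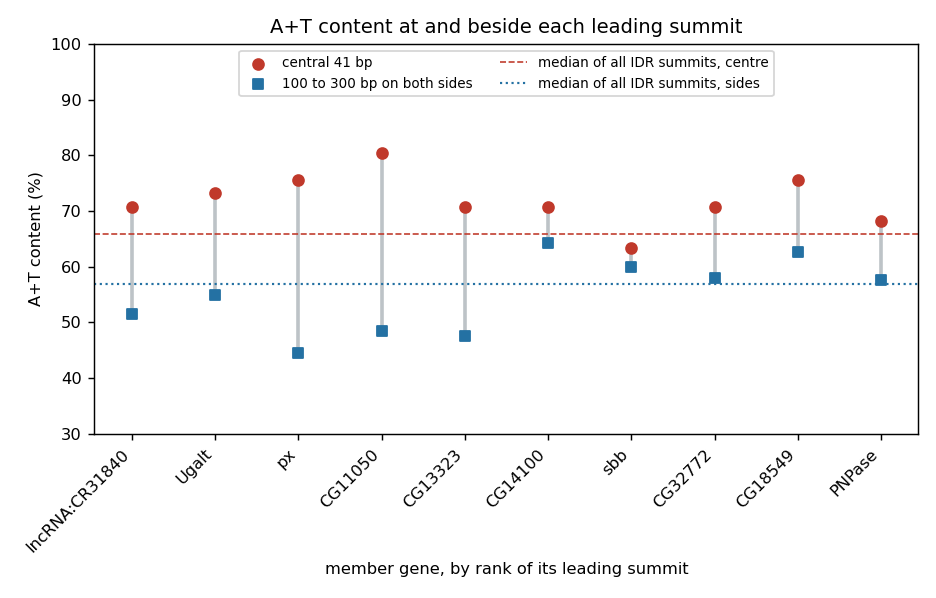
A+T content (percent, vertical) in the central 41 bp (red circles) and at 100 to 300 bp on both sides (blue squares) of each leading summit, with the genes in order of rank. Dashed and dotted lines are the medians of all IDR summits, 65.9% in the centre and 57.0% at the sides; sbb, at 63.4%, is the only red circle below the dashed line.

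With only 10 leading summits, counts of the sequence motifs looked for were small. None was tested against its share of all IDR summits. The motif ACAGTG, searched on both strands and picked in an earlier look at these data for its place beside ATbp summits, was sought from 50 bp to 2.5 times that distance away. It was in that zone at 1 of the 10, px, where 15.1% of all IDR summits had it. At px it occurred at -74.5 bp from the summit on the minus strand and at 94.5 bp on the plus strand, counted to the motif's middle with negative values to the left, so both copies pointed away from the summit. The arrangement in which it points at the summit was at none of the 10, where 10.7% of all IDR summits had it. Among the 45 other IDR summits of the windows 4 had ACAGTG in the zone, 3 of them pointing at the summit. Within 50 bp of the summit ACAGTG was at none of the 10, and at 7.03% of all.

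Of the other motifs within 50 bp, on both strands, CAAACA was at 3 leading summits, those of lncRNA:CR31840, Ugalt and sbb, with 18.3% of all IDR summits holding it. GTACAC was at lncRNA:CR31840 alone (4.71% of all). None of the 10 windows held GAGAG, the site of GAGA factor (11.7% of all), TATCGATA, the DNA replication-related element (0.76%), GTGCAC (2.92%) or CCAGGA (0.777%). No motif searched contains another, and absence from a window says only that these letters are not there.

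The leading summit stood far above the rest of its window at 8 of the 9 genes that had a second IDR summit. The ratio of its signal to the second strongest was 18.7 at CG13323, 15.6 at CG18549, 8.54 at CG32772, 7.37 at CG14100, 6.98 at CG11050, 6.67 at lncRNA:CR31840, 5.99 at px and 4.78 at PNPase. It was lowest at sbb, at 2.53. The choice of genes by their strongest summit favours high ratios, and they are given as a description.

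The 10 windows held 55 IDR summits in 477.1 kb, 34 of them in those of px and sbb. An IDR summit in the gene body or within 15 kb was found for 69% of all genes. The members had a median of 3, against 1 over all genes and 2 over genes with at least 1. Each member's count includes the leading summit that led to its choice, so nothing is read from this difference. The members were also longer, with a median of 4976.5 bp, against 1646 bp over all genes and 1870 bp over genes with at least 1 summit. Density was 1.15 per 10 kb in the 10 windows and 0.442 along the chromosomes that carried IDR summits. With the leading summits left out it was 0.943 per 10 kb, and with px and sbb left out as well 0.481. By gene, with leading summits counted, density was 1.65 per 10 kb at sbb, 1.64 at px and 1.65 at lncRNA:CR31840. At the other genes it ran from 0.306 at Ugalt to 0.885 at PNPase.

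**Figure D4:**
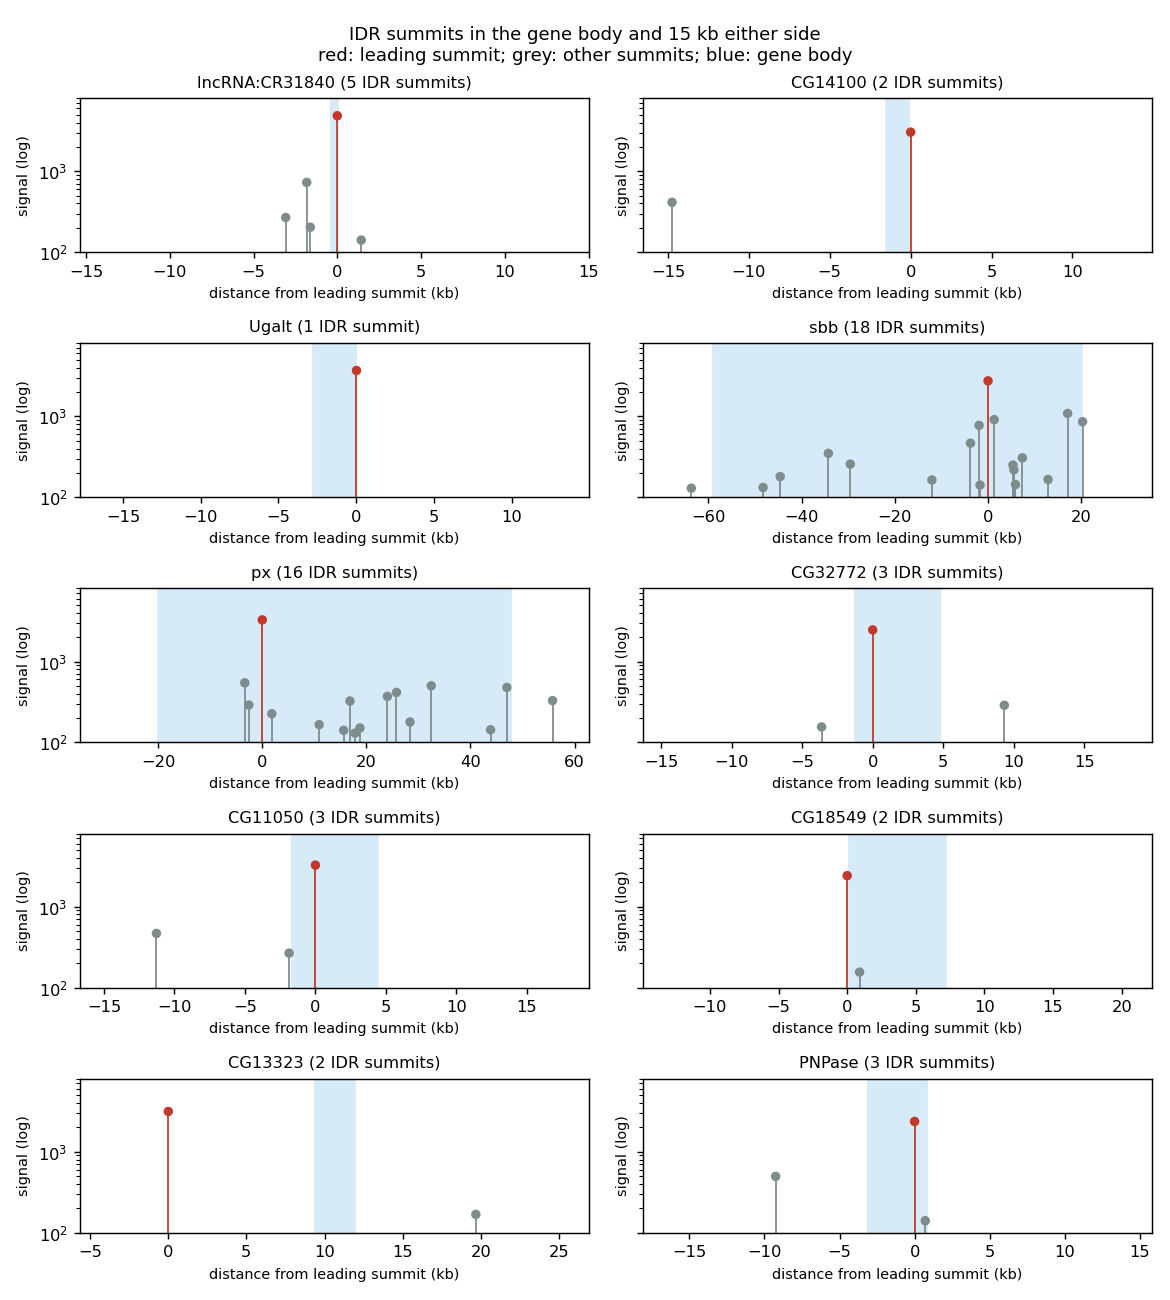
Signal of each IDR summit (vertical, log scale, the authors' value) by distance in kb from the leading summit (horizontal), one panel per gene. Red marks the leading summit, grey the others and blue the gene body. The windows of px (16 summits in 97.8 kb) and sbb (18 in 109.1 kb) are the longest and hold the most, with uneven gaps. Ugalt has 1 and the other genes 2 to 5.

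Many summits lay in the bodies of sbb and px, unevenly spaced. In sbb 16 of the 18 were inside the gene, 14 in introns and 2 within 500 bp of a start, with a median gap of 3669 bp between neighbours and a widest gap of 17501 bp. After the leading one its strongest were at 18354253 (signal 1088.1, rank 165), 18338494 (913.1, rank 263), 18357443 (860.4, rank 295) and 18335249 (772.9, rank 360). The one at 18357443 lay 147 bp upstream of the outer sbb start at 18357296, with a lower signal than the intron site. These 4 ranked 92, 210, 323 and 413 in replicate 1, and 337, 255, 271 and 323 in replicate 2. A pair of sbb summits only 210 bp apart differed in composition, with 78.2% A+T at 18335249 and 36.6% at 18335459 (rank 5266), the lowest of the 55. Their peaks overlapped, at 18335117 to 18335443 and 18335257 to 18335660, and the DNA was sheared to 200 to 800 bp. Whether the weaker summit is a separate site was not tested.

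In px 15 of the 16 were inside the gene, 13 in introns and 2 at starts, with a median gap of 2594 bp and a widest gap of 11407 bp. Besides the leading one they ranked from 717 to 5810, so none was among the 500 strongest. The 14 others in px had 47.5% to 79.2% A+T, with a median of 62.9%, and the 15 others in sbb 36.6% to 79.2%, with a median of 67.3%. Of the 15 weaker summits of the px window 10 ranked higher in replicate 1 than in replicate 2, and of the 17 of the sbb window 9 did. Of all 5921 IDR summits, matched in both replicates or not, 40.3% ranked higher in replicate 1 and 52.1% in replicate 2. No test was made of these counts. The last px window summit, at 22570072, was in dnr1, with signal 328.8 and rank 1718.

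Several of the weaker summits lay at neighbouring genes. In the PNPase window the second strongest (3R:31395392, signal 496.1, rank 863) lay between the divergent starts of Ugt35D1, 88 bp away, and Gcn2, a kinase gene of the stress response, 268 bp away. Beside CG11050 a summit at 2L:6601423 (signal 466.9, rank 949) lay 355 bp from the start of Dpp10. In the CG14100 window the second (3L:19575865, signal 413.4, rank 1160) was in Shal, a potassium channel gene, 14749 bp from the leading one. In the CG32772 window a summit at X:4919708 (signal 288.1, rank 2086) was in Hgsnat and one at X:4906755 (155.5, rank 4703) was 145 bp from the start of CG6927. Within CG18549 a weak summit lay at 3R:12450066 (signal 155.1, rank 4718), 904 bp right of the leading one.

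Of the 45 weaker IDR summits in the windows, 43 had a relaxed summit within 100 bp in both replicates and 2 in replicate 1 alone, one in sbb and one at PNPase. Their replicate summits were a median of 14 bp apart. They had a median A+T content of 63.4%, and 11 were at promoters, 30 in introns and 4 intergenic. The pooled relaxed list held 166 summits in the windows, the replicate 1 list 184 and the replicate 2 list 167. The 111 pooled summits that were not in the IDR list ranked 6258 or lower, the strongest of them in sbb at 18352008 with signal 123.0. In the IDR list made on the older build dm3, the peaks at the ranks of the 10 leading summits lay on the same chromosomes, with signals within 0.119% of those on dm6, and their coordinates were not converted.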

How the data were processed

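ATbp ChIP-seq peak lists from 2 replicates were used. Per the submitters' file descriptions deposited with the samples, relaxed lists came from each replicate's alignments with a control and from the pooled alignments, and the IDR list from these 3 lists. The deposited signal value of each peak is the authors' own. The control was not analysed here, and the sources used here give no aligner, caller or IDR threshold. Labels give sonication to 200 to 800 bp. Replicates came from separate biosamples.

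Coordinates are dm6, written 1-based, set against the RefSeq assembly of that release and Ensembl annotation release 115 (BDGP 6.54) without transposable elements. A summit took the first that applied of promoter (within 500 bp of a TSS), 5' UTR, coding sequence, intron (no exon of any gene), 3' UTR, other exon and intergenic. Peaks matched where summits lay within 100 bp. Named genes are the 10, those at or next to their summits, and those at stronger or next weaker summits. Members, motifs and lists were chosen with earlier results of these data known. No test was made. Python 3.11.15, NumPy 2.4.6 and pandas 2.3.3 were used. The functions for matching, composition and motifs gave back planted features on simulated data.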

Additional observations from a re-analysis of the deposited data

How the results depend on the processing

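The 10 windows held 55 IDR summits, and 21 among the 1000 strongest. Flanks of 5 and 30 kb gave 49 and 66, and the strongest peaks of a single replicate 51 to 52. Median A+T content at leading summits was 69.8% within 50 bp, 71.6% within 25 bp, 61.9% within 100 bp and 58.5% within 150 bp, and 68.8% to 69.3% at the summits of a single replicate. ACAGTG was beside 1 leading summit in the main zone and beside 2 in a zone of 25 to 150 bp, where Ugalt joined px. The promoter count stayed at 6 with distances of 250 and 1000 bp and in either replicate alone. All 10 leading summits stayed within the rank limit at 50 and 500, and with matching at 50 and 200 bp. Of the 55, 43 were matched in both replicates at 50 bp, 53 at 100 bp and 55 at 200 bp. No paired analysis was possible because there is 1 group. Unknown depth, 2 replicates and a selected set of 10 limit all values.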

Other observations

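Among words of 8 bases within 150 bp of the leading summits, with reverse complements merged, 19 were in 3 of the 10 windows and none was in more. The rarest of the 19 over all IDR windows was GGCAGAGA (1.1%), at lncRNA:CR31840, px and CG13323, followed by AGAGTGTG (1.25%), at px, CG13323 and PNPase, and ATACAAGA (1.4%), at CG11050, CG14100 and sbb. Among words of 7 bases within 50 bp, 4 were in 4 of the 10 windows and none was in more. They were ATACAAG (1.86% of all IDR windows), at px, CG11050, CG14100 and sbb, and AAGCAAA (6.4%), AAATAAT (10.5%) and TAAATAA (11.8%). This length and window were added after the words of 8 had been seen, the words were picked for their counts, and no test was made of any of them.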
